A study of Mus musculus with 6 samples.

Results

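The genes described here are 10 chaperone genes of mouse muscle, namely *Hspb1*, *Hspb2*, *Hspb3*, *Hspb6*, *Hspb7*, *Hspb8*, *Cryab*, *Unc45b*, *Smyd1* and *Bag3*. They were chosen by name, with earlier results of these data known. They were matched to the count table through their Ensembl identifiers, and make up 10 of 56262 genes listed. All 10 passed the filter on low counts, which left 22071 genes. RNA-seq was performed on leg muscle of fetuses at embryonic day 18.5, from 3 wild-type (WT) and 3 *SYISL* knockout (KO) samples, to ask how *SYISL* acts in embryonic muscle development. *SYISL* is a long non-coding RNA transcribed from within an intron of *Synpo2*. KO females were mated with KO males and WT mice were supplied separately, so that fetal genotype, maternal genotype and litter cannot be told apart. The strain and the number of litters are not given in the sources used here, and the p-values therefore measure only the spread between these samples.

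Small heat-shock proteins are chaperones that bind unfolding proteins without using ATP and hold them in a state that other chaperones can refold. In striated muscle they sit at the Z-disc and on desmin and actin filaments, which are strained at every contraction. BAG3 is a co-chaperone that joins HSPB8 to HSP70 and the ubiquitin ligase CHIP, and with synaptopodin-2 this complex sends damaged filamin to autophagy. UNC45B is the muscle chaperone of the myosin head and works with HSP90, and SMYD1 is a muscle methyltransferase needed for sarcomere assembly.

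Total counts ranged from 82054811 to 102233181 per sample. At these unscaled totals, 3 counts corresponded to 0.0293 to 0.0366 CPM, which are counts scaled to the library size. The CPM of genes given below use library sizes scaled by TMM factors instead. A gene was called at an adjusted p under 0.05 (edgeR quasi-likelihood test, Benjamini-Hochberg adjustment over all genes tested) with a fold change over 1.5. The words higher and lower are used below for an adjusted p under 0.05 at any fold, and the smaller changes are named as such. The loss of *SYISL* was not checked here, because the annotation lists no gene under that name. Its host gene *Synpo2* was higher in KO, with 136 ± 4.21 CPM in WT and 214 ± 18.9 CPM in KO (mean ± SD, n = 3). The tissue label was checked against 12 muscle fibre markers such as *Ckm* and *Acta1*, whose summed level was 13430 to 14684 CPM in WT and 30053 to 39098 CPM in KO. Levels of 10 epidermis markers summed to 16106 to 24236 CPM in WT and 679 to 790 CPM in KO, and those of 6 red blood cell markers to 3934 to 5174 CPM and 546 to 665 CPM. All 10 epidermis and all 6 red blood cell markers were called lower, and 11 of the 12 muscle fibre markers were called higher. All 6 adipocyte markers were also called higher, with sums of 105 to 137 CPM in WT and 340 to 402 CPM in KO and a median log2 fold change of 2.55, and of 6 cartilage markers 3 were called lower and 1 higher. In bulk tissue, fewer cells of a type and less RNA per cell cannot be told apart, and the part that this difference in makeup plays in the values below was not tested.

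The promoter windows of the genes were searched for short motifs of heat-shock factors, the regulators that induce chaperones under stress. RefSeq windows of 300 bases around the start site (assembly GRCm38.p6) were found for 8 of the 10 genes, in 9 windows, since *Hspb6* has a pair of start sites, and *Hspb2* and *Cryab* were not in the table. Heat-shock factors bind inverted repeats of GAA, searched on both strands as GAANNTTC and as TTCNNGAA. GAANNTTC was found in 5 of 9 windows, against 7.86% of 32851 windows of all genes, and TTCNNGAA was found in 0 of 9, against 8.52%. The E-box CANNTG of myogenic factors was found in 5 of 9 windows, against 72.3% of all. The MEF2-like motif, CTA and TAG parted by any 4 bases, was found in 1 window, that of *Hspb3*, against 3.69% of all. The windows below are those of the genes whose levels differed most between genotypes, of *Hspb1*, which went the other way, and of *Bag3*, with GAANNTTC in capitals. They lie at chr4:141420529-141420828, plus strand (*Hspb7*), chr7:30553051-30553350, plus strand (*Hspb6*, downstream start site), chr5:116422815-116423114, minus strand (*Hspb8*), chr5:135887669-135887968, plus strand (*Hspb1*) and chr7:128523333-128523632, plus strand (*Bag3*).
Hspb7: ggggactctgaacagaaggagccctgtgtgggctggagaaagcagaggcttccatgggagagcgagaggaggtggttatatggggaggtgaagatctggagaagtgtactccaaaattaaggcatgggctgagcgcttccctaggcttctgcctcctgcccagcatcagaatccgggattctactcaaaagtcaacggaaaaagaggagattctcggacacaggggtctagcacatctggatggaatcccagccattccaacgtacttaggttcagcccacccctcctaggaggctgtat
Hspb6: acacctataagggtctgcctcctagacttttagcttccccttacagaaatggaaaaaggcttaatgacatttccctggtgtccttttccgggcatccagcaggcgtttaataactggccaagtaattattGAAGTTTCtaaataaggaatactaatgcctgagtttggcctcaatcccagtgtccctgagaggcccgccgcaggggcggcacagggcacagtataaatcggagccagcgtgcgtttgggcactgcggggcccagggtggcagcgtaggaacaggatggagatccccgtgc
Hspb8: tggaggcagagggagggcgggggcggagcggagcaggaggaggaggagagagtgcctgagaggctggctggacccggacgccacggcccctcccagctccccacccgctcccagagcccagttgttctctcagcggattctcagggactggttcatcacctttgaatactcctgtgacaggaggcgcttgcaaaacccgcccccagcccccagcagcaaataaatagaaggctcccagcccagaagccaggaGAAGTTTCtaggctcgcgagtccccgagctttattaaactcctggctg
Hspb1: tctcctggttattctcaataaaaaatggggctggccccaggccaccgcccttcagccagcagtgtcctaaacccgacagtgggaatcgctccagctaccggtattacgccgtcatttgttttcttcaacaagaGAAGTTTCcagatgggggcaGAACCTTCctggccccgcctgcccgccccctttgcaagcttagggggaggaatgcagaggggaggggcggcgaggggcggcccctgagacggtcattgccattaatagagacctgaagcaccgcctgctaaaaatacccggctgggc
Bag3: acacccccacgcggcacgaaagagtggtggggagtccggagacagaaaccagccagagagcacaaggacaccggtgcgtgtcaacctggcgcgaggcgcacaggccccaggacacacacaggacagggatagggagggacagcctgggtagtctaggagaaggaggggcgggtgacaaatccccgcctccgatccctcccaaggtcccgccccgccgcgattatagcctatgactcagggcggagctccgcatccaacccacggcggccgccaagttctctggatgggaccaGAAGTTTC
The *Hspb7* window held no match, that of *Hspb1* held 2, and the others printed held 1 each. The upstream window of *Hspb6* (chr7:30552290-30552589, plus strand), not printed, held 0 matches. Genes higher in KO and the gene lower in KO both carried the motif. The matches of *Hspb8* and *Bag3* lay downstream of the RefSeq start site, and those of *Hspb6* and *Hspb1* upstream of it. A match describes letters only and does not show that a factor was bound. The lack of a match does not show that no factor binds.

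Expression of the small heat-shock genes shifted in KO muscle, with 4 of the 7 called higher (*Hspb7*, *Hspb6*, *Hspb8* and *Cryab*), *Hspb3* higher by less than 1.5-fold, *Hspb1* lower by less than 1.5-fold, and *Hspb2* not past the test. Over all 10 chaperone genes, 4 were called higher and 0 lower, where 16.7% of all genes tested were called in either direction and 8.31% were called higher. At an adjusted p under 0.05 and any fold, 8 of 10 were higher and 1 was lower, where 21.9% of all genes were higher and 23.1% were lower. KO values lay all above WT values for 8 of 10 genes, against 27.3% of all genes, and all below for 1 gene, against 28.5%. The median log2 fold change of the 10 genes was 0.42, beside -0.0041 over all genes tested. Because the genes were chosen with earlier results of these data known, these counts describe them and test nothing.

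**Figure D1:**
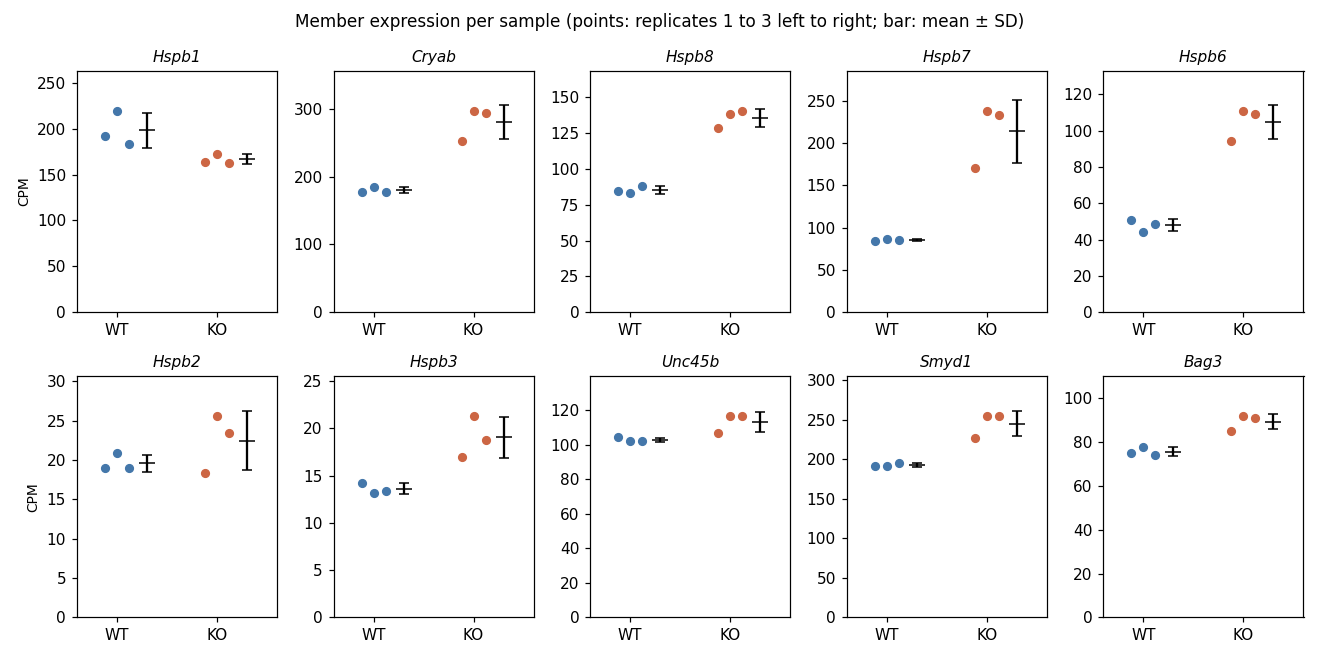
Expression of the 10 chaperone genes in CPM (vertical axis, from 0) in WT and KO leg muscle at E18.5. Each point is 1 sample, with replicates 1 to 3 from left to right, and the black bar is the mean ± SD (n = 3). KO samples lie above WT samples for all genes but *Hspb2*, where the genotypes overlap, and *Hspb1*, where KO samples lie below.

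*Hspb7* (chr4:141420779-141425311, plus strand), the cardiovascular small heat-shock protein that binds filamin C, had the largest rise. WT samples gave 83.9, 86.2 and 85.7 CPM, and KO samples gave 170, 238 and 233 CPM. The WT values lay close together, and KO replicate 1 was the lowest of its group but still far above them. The log2 fold change was 1.33 (SE 0.109, adjusted p = 9.98e-06), and 1.82% of all genes tested had a larger one.

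*Hspb6* (chr7:30552178-30555443, plus strand) encodes HSP20, which is phosphorylated in response to cyclic nucleotides in muscle. It gave 50.9, 44.2 and 48.7 CPM in WT and 94.2, 111 and 109 CPM in KO, so the genotypes did not overlap. Its log2 fold change was 1.13 (SE 0.0715, adjusted p = 1.93e-06), which placed it with *Hspb7* as the only members past a 2-fold change. Of its exon bases, 8.79% are shared with other genes, mainly *Proser3* on the opposite strand.

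*Hspb8* (chr5:116408491-116422864, minus strand), the partner of BAG3, gave 84.7, 83.2 and 88.2 CPM in WT and 129, 138 and 140 CPM in KO. Its log2 fold change was 0.67 (SE 0.0452, adjusted p = 2.87e-06). The lowest KO sample exceeded the highest WT sample by far more than the spread within either genotype. *Cryab* (chr9:50751325-50756636, plus strand) encodes αB-crystallin, the chaperone of desmin, and gave 178, 185 and 177 CPM in WT and 252, 297 and 293 CPM in KO. The log2 fold change of *Cryab* was 0.64 (SE 0.0635, adjusted p = 3.64e-05). Scaled by library size only, the *Cryab* log2 fold change was 0.57 and fell short of 1.5-fold.

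*Hspb3* (chr13:113662896-113663676, minus strand) and *Hspb2* (chr9:50751078-50752354, minus strand) encode proteins that assemble with each other in muscle. *Hspb3* gave 14.2, 13.2 and 13.3 CPM in WT and 17.0, 21.3 and 18.8 CPM in KO, with no overlap and a log2 fold change of 0.49 (SE 0.0825, adjusted p = 0.00111). *Hspb2* gave 19.0, 20.9 and 19.0 CPM in WT and 18.4, 25.6 and 23.5 CPM in KO, so KO replicate 1 lay below all WT samples and the other KO samples above them. Its log2 fold change was 0.20 (95% confidence interval -0.046 to 0.44, adjusted p = 0.171), without KO replicate 1 it was 0.33 (adjusted p = 0.00394), and without KO replicate 2 it was 0.094 (adjusted p = 0.533). *Hspb2* and *Cryab* lie head to head on opposite strands and share 252 exon bases in the annotation, 30.2% of those of *Hspb2* and 17% of those of *Cryab*. The strand setting of the counting is not stated, so how reads from the shared bases were assigned is not known. Per 100 *Cryab* counts, there were 10.7 to 11.3 *Hspb2* counts in WT and 7.28 to 8.62 in KO. Per 100 *Hspb3* counts, there were 133 to 159 *Hspb2* counts in WT and 108 to 125 in KO. Neither ratio overlapped between genotypes, and the exact permutation p was 0.1 for each, the smallest that 3 against 3 samples allow.

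*Hspb1* (chr5:135887919-135889563, plus strand) encodes HSP25, the mouse form of HSP27, which caps actin filaments and is expressed in many tissues besides muscle. It gave 192, 219 and 183 CPM in WT and 164, 173 and 163 CPM in KO. The genotypes did not overlap, with WT replicate 2 the highest sample and WT replicate 3 only slightly above the highest KO sample. The log2 fold change was -0.25 (SE 0.0649, adjusted p = 0.0111), without WT replicate 2 it was -0.17 (adjusted p = 0.0202), and without KO replicate 3 the adjusted p was 0.0555. WT replicate 2 also held the highest summed epidermis markers, at 24236 CPM against 16106 and 18040 CPM in the other WT samples. Left out of the scaling, the epidermis and keratin genes did not move the *Hspb1* log2 fold change from -0.25, but whether epidermal RNA contributed *Hspb1* counts was not tested.

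**Figure D2:**
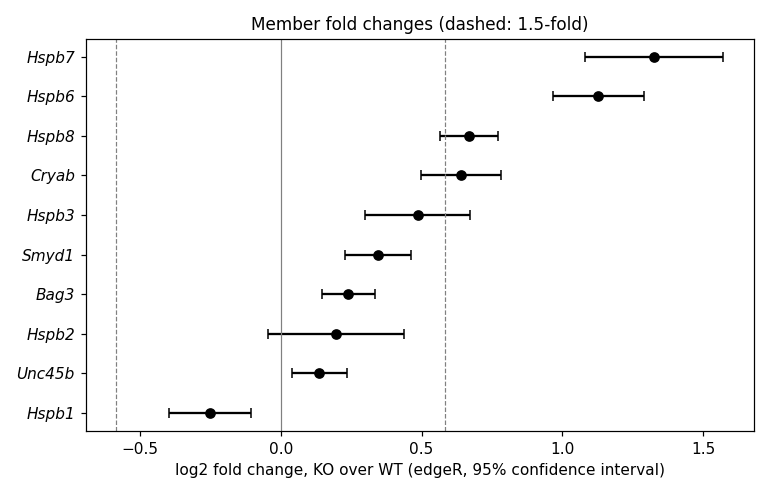
Log2 fold change of each chaperone gene, KO over WT (horizontal axis), with its 95% confidence interval from edgeR (n = 3 per genotype). Dashed lines mark a 1.5-fold change and the solid line no change. *Hspb7* and *Hspb6* lie at 1.33 and 1.13, *Hspb1* lies at -0.25, and the interval of *Hspb2* spans 0.

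The myosin-folding genes and the co-chaperone were higher in KO by less than 1.5-fold, with smaller log2 fold changes than the 4 small heat-shock genes called. *Smyd1* (chr6:71213940-71322233, minus strand) gave 191, 192 and 195 CPM in WT and 226, 254 and 254 CPM in KO, with a log2 fold change of 0.35 (SE 0.0520, adjusted p = 5.34e-04). *Unc45b* (chr11:82910550-82943403, plus strand) gave 104, 102 and 102 CPM in WT and 107, 117 and 117 CPM in KO, with a log2 fold change of 0.14 (SE 0.0433, adjusted p = 0.0280). Both were higher in every KO sample, but the *Unc45b* difference was small. The adjusted p of *Unc45b* was 0.211 when scaled by library size only. Without WT replicate 2 or 3 or KO replicate 2 or 3, it was between 0.0700 and 0.111. Of the *Unc45b* exon bases, 9.04% are shared with transcripts on the opposite strand. *Bag3* (chr7:128523616-128546981, plus strand) gave 75.2, 77.9 and 74.0 CPM in WT and 85.3, 91.8 and 90.9 CPM in KO, with a log2 fold change of 0.24 (SE 0.0415, adjusted p = 0.00126).

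Ratios between partners were taken within each library. Per 100 *Bag3* counts there were 107 to 119 *Hspb8* counts in WT and 150 to 154 in KO, so the *Hspb8* share was higher in KO. Per 100 *Smyd1* counts there were 52.4 to 54.6 *Unc45b* counts in WT and 45.9 to 47.2 in KO. Per 100 counts of *Unc45a*, the general form of the myosin chaperone, there were 250 to 289 *Unc45b* counts in WT and 313 to 385 in KO. Per 100 *Hspb1* counts there were 84.5 to 96.8 *Cryab* counts in WT and 154 to 180 in KO. Each of these 4 ratios was free of overlap between genotypes, at an exact permutation p of 0.1, the smallest possible. The *Hspb7* to *Hspb6* ratio overlapped, at 165 to 195 *Hspb7* counts per 100 *Hspb6* counts in WT and 181 to 215 in KO (exact permutation p = 0.2). In all, 11 ratios were computed, only *Hspb7* per *Hspb6* overlapped, and no p could fall below 0.1. Of those not printed here, *Bag3* per *Hspa8* and *Hspb7* per *Flnc* were higher in KO, and *Cryab* per *Des* and *Bag3* per *Synpo2* were lower. For single genes, KO values lay all above WT in 27.3% of all genes tested and all below in 28.5%. The share over gene pairs in general was not computed, so freedom from overlap is not shown to be particular to these partners.

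Levels were compared between genes per exon length, as TPM, which are counts per exon base scaled to the same sum in every sample. In WT the mean levels ran from *Hspb1* at 604 TPM and *Cryab* at 383 TPM through *Hspb8* at 138, *Smyd1* at 133, *Hspb7* at 96.8, *Bag3* at 92.9, *Hspb2* at 73.9, *Unc45b* at 72.1 and *Hspb6* at 65.6 down to *Hspb3* at 54.7 TPM. *Hspb8* and *Smyd1*, and *Hspb2* and *Unc45b*, were the neighbours whose WT samples overlapped. In KO, *Cryab* at 577 TPM stood above *Hspb1* at 492 TPM, and *Hspb7* at 234 TPM stood above *Hspb8* and *Smyd1*, below which it lay in WT. Then came *Hspb8* at 212, *Smyd1* at 164, *Hspb6* at 139, *Bag3* at 106, *Hspb2* at 81.8, *Unc45b* at 76.8 and *Hspb3* at 74.1 TPM. *Hspb7* and *Hspb8* overlapped in KO, and so did *Hspb2* with *Unc45b* and *Unc45b* with *Hspb3*. Among the 7 small heat-shock genes, the mean share of *Hspb1* in their summed TPM was 42.6% in WT and 27.2% in KO, and that of *Hspb7* was 6.85% and 12.9%. Their summed level was 1391 to 1457 TPM in WT and 1727 to 1875 TPM in KO.

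**Figure D3:**
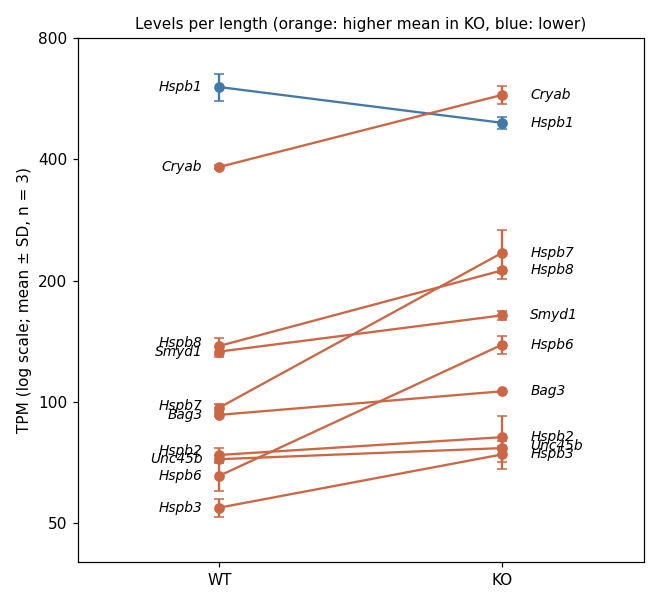
Mean level per exon length of each chaperone gene in WT and KO (vertical axis, TPM on a log scale; error bars are SD, n = 3), with 1 line per gene. Orange lines have a higher mean in KO and the blue line a lower one. *Hspb1* is highest in WT at 604 TPM, and *Cryab* is highest in KO at 577 TPM.

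Because muscle fibre markers were higher in KO, each gene was also set against them within the same library, as counts per 1000 counts of the 12 markers. On this scale 9 of the 10 genes were lower in KO with no overlap, each at an exact permutation p of 0.1, the smallest possible. Since the markers themselves rose, 92.9% of all genes tested were lower with no overlap on this scale, with a median log2 difference of -1.32, so the count is near the background. The log2 differences of the chaperone genes are therefore to be read against that median. All genes of a library are divided by the same marker sum, so this reading largely restates the log2 fold changes given above. *Hspb7* overlapped between genotypes, with 5.71, 6.42 and 5.88 in WT and 5.67, 6.08 and 6.10 in KO (log2 difference -0.011, exact permutation p = 0.9). *Hspb6* was nearest to it, with 3.46, 3.29 and 3.34 in WT and 3.13, 2.83 and 2.87 in KO, a log2 difference of -0.19. *Hspb1* was the only member below the median of all genes, with 13.1, 16.3 and 12.6 in WT and 5.44, 4.42 and 4.27 in KO, a log2 difference of -1.57. *Unc45b*, *Hspb2*, *Bag3* and *Smyd1* lay above that median, at -1.19, -1.14, -1.08 and -0.98 on the log2 scale. Against *Des*, the desmin gene, alone, 8 genes were lower with no overlap, where 88.5% of all genes were (median log2 difference -1.06). *Hspb7* was higher per *Des* count with no overlap, by 0.26 on the log2 scale, as were 1.6% of all genes, and *Hspb6* overlapped. The ratio shows unequal change and does not say whether the chaperones or the markers moved.

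**Figure D4:**
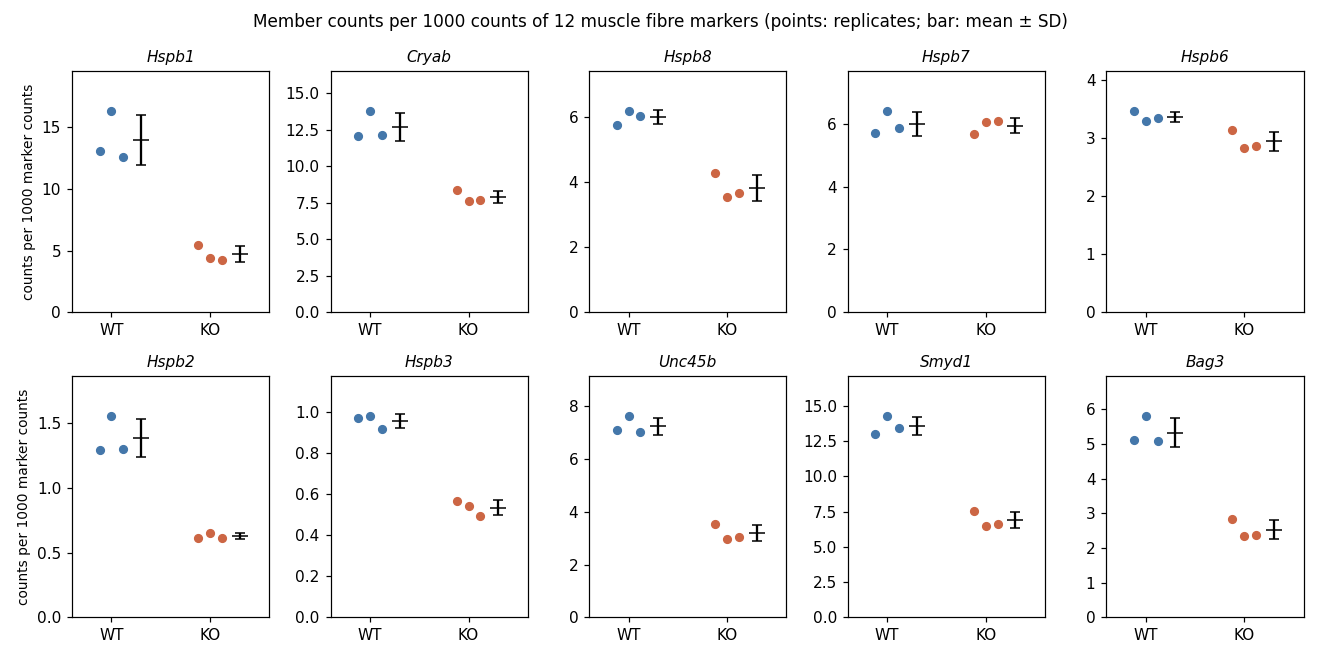
Counts of each chaperone gene per 1000 counts of the 12 muscle fibre markers in the same library (vertical axis, from 0) for WT and KO samples. Points are samples and the black bar is the mean ± SD (n = 3). *Hspb7* overlaps between genotypes and the other 9 genes are lower in KO, as are 92.9% of all genes on this scale.

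Genes of the inducible heat-shock response, HSP90 and chaperonin lists were lower more often than higher in KO. Among 15 genes of the inducible heat-shock response, 14 were lower at any fold and 0 higher, and 2 were called lower. These were *Hspa1b*, with 38.4 ± 8.19 CPM in WT and 3.09 ± 0.249 CPM in KO (log2 fold change -3.63), and *Hspa1a*, with 7.49 ± 1.17 and 1.40 ± 0.165 CPM (log2 fold change -2.41). Both encode stress-inducible HSP70 and are near-identical copies, so that counts may be split uncertainly between them. Of 14 HSP90 genes and co-chaperones, 11 were lower at any fold, 2 were higher and 0 were called, with a median log2 fold change of -0.24. *Hsp90aa1* had a log2 fold change of -0.37 (adjusted p = 2.02e-04), *Hsp90ab1* of -0.23 (adjusted p = 0.0103) and *Unc45a* of -0.29 (adjusted p = 0.00446). Of 16 chaperonin and prefoldin genes, 9 were lower at any fold and 0 higher. Of 15 HSP70 and HSP110 genes, 8 were lower and 4 higher. Of 14 J-domain genes, which deliver clients to HSP70, 5 were lower and 4 higher. Over all genes tested, 23.1% were lower and 21.9% higher at any fold. The J-domain counts and the number of HSP70 genes higher are near these shares. Under upper-quartile scaling the genes lower at any fold numbered 12 in the inducible response, 9 among HSP90 genes, 4 among chaperonins, 6 among HSP70 genes and 2 among J-domain genes. Without KO replicate 3, 7 HSP90 genes were lower and 0 higher, 5 chaperonin genes were lower and 2 J-domain genes were lower, and without WT replicate 3, 6 chaperonin genes were lower. With any 1 sample left out, the HSP90 genes higher in KO numbered 0 or 1. These lists overlap. *Hsf1*, the main heat-shock factor, had a log2 fold change of -0.08 (adjusted p = 0.170).

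The partners of BAG3 and HSPB8 went in both directions, in counts near the shares over all genes tested. *Hspa8*, the constitutive HSP70, fell from 1785 ± 64.9 to 1501 ± 44.8 CPM, with a log2 fold change of -0.25. *Stub1*, which encodes CHIP, gave 42.9 ± 1.53 and 41.7 ± 0.958 CPM (log2 fold change -0.04, adjusted p = 0.432). Of the *Stub1* exon bases, 42.3% are shared with other genes, and how reads from them were assigned is not known. *Flnc*, the filamin that this complex clears, was higher, with 573 ± 24.0 and 785 ± 25.5 CPM, a log2 fold change of 0.46. *Synpo2* was called higher, with a log2 fold change of 0.66. Of the 11 partner genes, 3 were higher at any fold and 2 lower (5 and 1 under upper-quartile scaling, and 1 lower when any sample but WT replicate 3 was left out). Over all genes tested, 21.9% were higher and 23.1% lower at any fold, so these counts are near the background. The 5 other *Bag* genes held 0 called and 1 lower (2 lower when scaled by library size only or without WT replicate 1). The 4 other *Smyd* genes held 2 higher and 2 lower at any fold, with 0 called. With DESeq2 or a replicate block, 1 *Smyd* gene was higher and 1 lower.

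Sarcomere and filament genes, whose proteins are known clients of these chaperones, were mostly higher in KO. Of 11 sarcomere and filament genes, 8 were called higher, 10 were higher at any fold and 0 were lower. Their median log2 fold change was 0.83. Over all genes tested, 8.31% were called higher, and 21.9% were higher and 23.1% lower at any fold. This list too was chosen with earlier results of these data known. *Myh8*, perinatal myosin, rose from 4710 ± 501 to 14165 ± 1457 CPM, with a log2 fold change of 1.59. *Myot*, a Z-disc protein, had a log2 fold change of 1.38, and *Des* of 1.06. *Cryaa*, chosen here after its values were seen, is the lens relative of *Cryab* and went the other way, with 1.56 ± 0.212 CPM in WT and 0.188 ± 0.0551 CPM in KO.

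**Figure D5:**
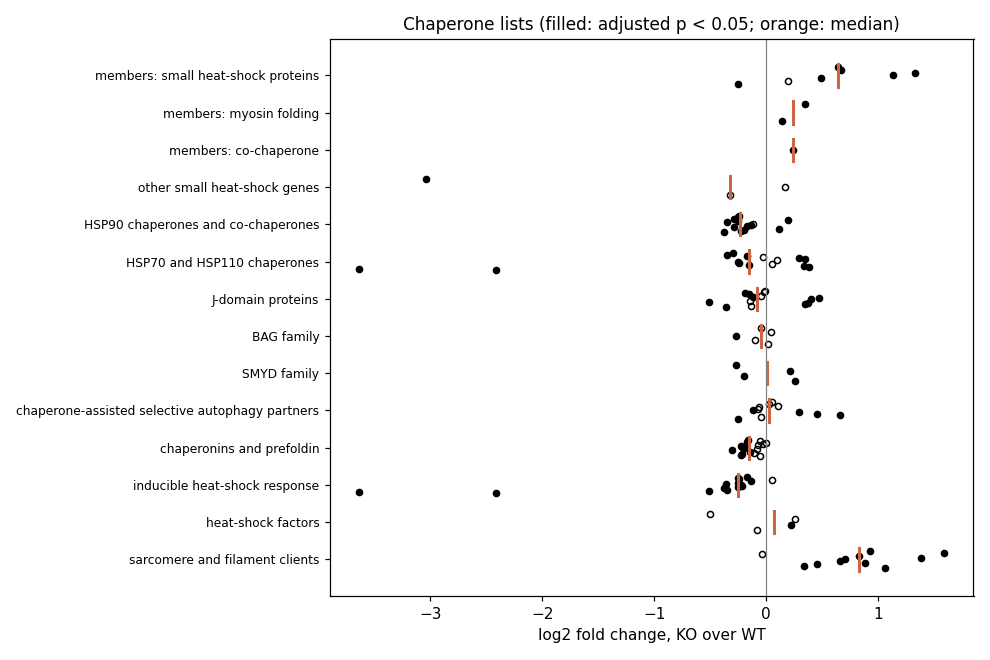
Log2 fold change, KO over WT (horizontal axis), of each tested gene of the chaperone lists and of their sarcomere clients, with 1 point per gene. Filled points have an adjusted p under 0.05 in edgeR, open points do not, and orange bars are list medians. The inducible heat-shock response lies mostly below 0, with a median of -0.25, and the clients lie mostly above 0, with a median of 0.83.

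The genes whose levels ran most alike across the 6 samples are given as a description. Among 8218 genes with at least 20 CPM on average, *Hspb6* was most like *Mybpc1*, *Myh8* and *Myom1* (Pearson's r of 0.9997, 0.9996 and 0.9996 on log2 CPM). *Hspb8* was most like *Hhatl*, *Atp2a1* and *Ank1*, and *Hspb7* was most like *Mirg*, *Jph2* and *Hist1h1c*. *Cryab* was most like *Vegfa*, *Hspb7* and *Cacnb1*. *Hspb1* was most like *Gm9892*, *Zrsr2* and *Srsf2*. The samples fall into the genotypes and share depth and makeup, so these values describe the 6 libraries only. Genes with r over 0.99 numbered 378 for *Hspb6*, 374 for *Hspb8*, 318 for *Hspb7*, 213 for *Cryab* and 0 for *Hspb1*. With so many near ties, the names do not show that the members differ.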

How the data were processed

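Leg muscle of E18.5 fetuses was sequenced in 3 WT and 3 KO samples. According to the methods and the submitters' processing notes, the authors trimmed 150 bp paired-end reads with Trim Galore 0.6.6, mapped them to mm10 with HISAT2 2.2.1 and counted them per gene with featureCounts 2.0.1. The deposited tables hold whole-number counts, without normalization, and the annotation, strand setting and counting of reads or pairs are not given in the sources used here. Symbols, positions and exon lengths came from GENCODE M21.

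Counts were tested in R 4.3.3 with edgeR 4.0.16 (filterByExpr, TMM, quasi-likelihood F-test on genotype alone, Benjamini-Hochberg adjustment), and the biological coefficient of variation was 7.68%. DESeq2 1.42.0, other scalings and filters, and leaving out each sample were alternatives. The CPM of genes use TMM-scaled library sizes, TPM use exon lengths. The members and gene lists were chosen with earlier results of these data known. The genes named are all members, fixed partners, and up to 3 called genes of each chaperone list with at least 1 CPM and no overlap. Intervals are 95% and cover these samples only. Depth of 82054811 to 102233181 counts limits precision through the spread between samples more than through counting.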

Additional observations from a re-analysis of the deposited data

How the results depend on the processing

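Across alternatives in scaling, filter and tool and with each sample left out, the log2 fold changes of all 10 chaperone genes kept their direction, and of the 4 called genes only *Cryab* lost its call, at 0.57 when scaled by library size only. With 1 sample left out, 4 members stayed called each time, and 3351 to 3877 genes were called in all, beside 3687. At any fold change, 9936 genes were called (4838 higher and 5098 lower), 9 of them members. At a fold change over 2, 2043 genes were called (774 higher), 2 of them members. No source ties replicate numbers to litters, and the deviations of same-numbered WT and KO samples correlated at -0.202, -0.141 and 0.0455. These values show no pairing, but so few samples cannot decide whether one exists. With a replicate block, 3521 genes and 4 members were called, and the adjusted p of *Unc45b* was 0.0577. Scalings moved the median log2 fold change of all genes between -0.0728 and 0.0637. With 3 samples per genotype, exact tests cannot go below 0.1.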
